A study of Mus musculus domesticus and Mus musculus molossinus with 8 samples.

Results

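The 10 genes described here, Atf4, Ddit3, Trib3, Ppp1r15a, Asns, Chac1, Xbp1, Herpud1, Sdf2l1 and Creld2, belong to the integrated stress response and the unfolded protein response. They were taken by symbol from the 23284 genes in both deposited expression tables, and all 10 were found. RNA sequencing had been done on the liver and thymus of 4 mice, each 8 weeks old. The 4 mice were an untreated C57BL/6 (B6) mouse, an untreated MSM/Ms (MSM) mouse, a B6 mouse injected intraperitoneally with 1.5 µg of MegaFasL and an MSM mouse injected in the same way. MegaFasL is a multimeric form of Fas ligand that triggers apoptosis through the death receptor Fas, B6 is a common laboratory strain and MSM is an inbred strain from Japanese wild mice. Each of the 8 groups (strain, tissue and treatment) is therefore 1 library from 1 animal, and the liver and thymus of a mouse were deposited in the same table, with 1 table for the untreated mice and a separately normalized one for the injected mice.

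Cells slow translation when kinases such as PERK (Eif2ak3), in the membrane of the endoplasmic reticulum (ER), or GCN2 (Eif2ak4), in the cytosol, phosphorylate the translation factor eIF2alpha. Translation of the transcription factor ATF4 rises in that state, and ATF4 drives genes for amino acid synthesis and transport, for CHOP (Ddit3) and for GADD34 (Ppp1r15a), which returns eIF2alpha to its unphosphorylated form. The other branches of the unfolded protein response run through IRE1 (Ern1), which splices Xbp1 mRNA, and through ATF6, and both raise ER chaperones and the machinery that removes misfolded proteins. Hepatocytes secrete large amounts of plasma protein and carry an extensive ER, whereas thymocytes are small cells that secrete little.

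Values are FPKM, fragments per kilobase of transcript scaled to the library's mapped fragments. The spacing of low values put 1 FPKM of a transcript of 1 kb at 1.56 to 1.79 fragments in the livers and at 2.82 to 3.43 in the thymi, so 1 fragment of a 2 kb transcript was worth 0.279 to 0.320 FPKM in liver and 0.146 to 0.177 FPKM in thymus. Hepatocyte and thymocyte markers marked the tissues as labelled: all 12 genes of each list were higher in their own tissue (limma, adjusted p under 0.05). The untreated MSM thymus stood apart, since its hepatocyte markers summed to 3376 FPKM against 52.0 to 239 in the other thymi, its airway markers to 1148 against 1.07 to 7.01 and its adipose and muscle markers to 1223 against 133 to 200. Macrophage markers in liver summed to 434 and 210 FPKM in the B6 mice and to 81.6 and 77.0 in the MSM mice, with all 10 genes lower in MSM and 2 past the threshold. In whole tissue, fewer cells of a type and less RNA per cell cannot be told apart.

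The 10 genes ranged from undetected to 524 FPKM. Herpud1 was the most abundant of them in all 4 livers. Xbp1 and then Atf4 followed, except in the injected MSM liver, where Atf4 came before Xbp1. In all 4 thymi Xbp1 and Atf4 led, in either order, with Herpud1 in the third place. Creld2, Sdf2l1 and Ddit3 lay between 2.49 and 29.8 FPKM in the 8 libraries. Ppp1r15a, Trib3, Asns and Chac1 stayed below 10 FPKM everywhere, and 3 of them were listed at 0 in some libraries: Trib3 in 2, Asns in 3 and Chac1 in 5. The authors' own interval reached down to 0 for all 80 values of these genes, as for 186268 of the 186272 values in both tables, so the intervals given here are 95% Poisson intervals from the estimated fragments and cover counting error only.

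**Figure D1:**
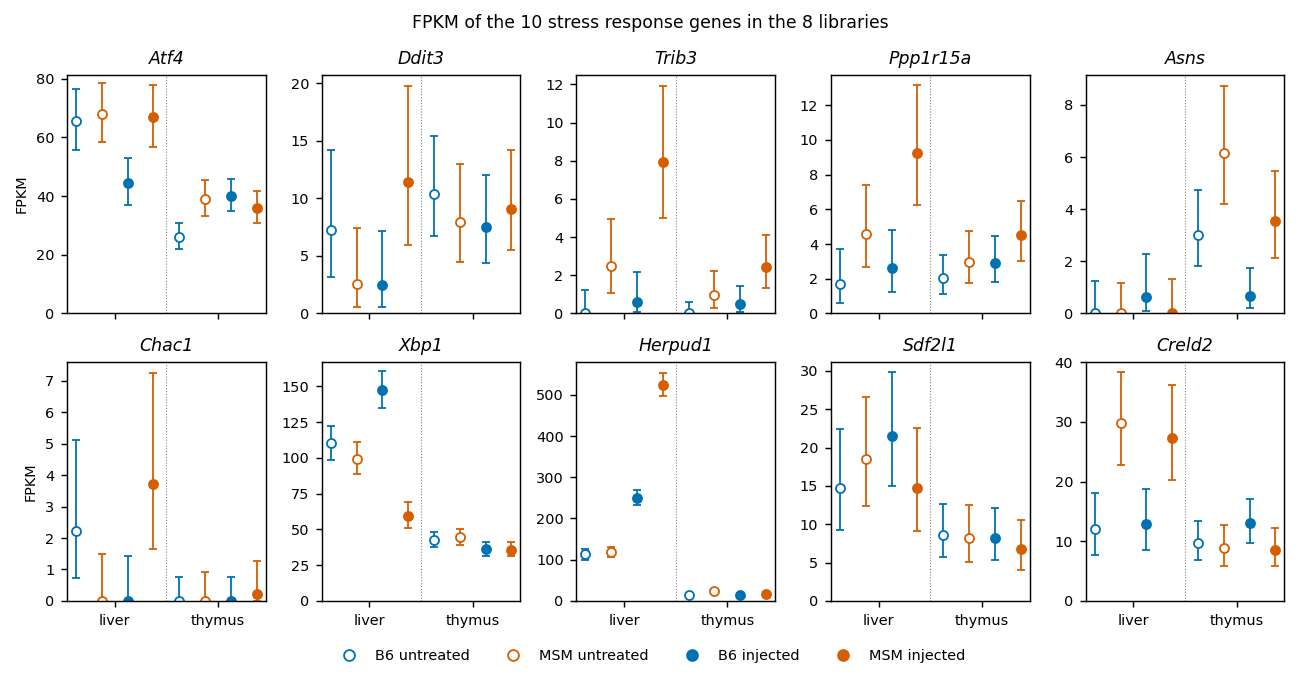
FPKM of each gene (linear axes starting at 0) in the 4 livers and 4 thymi; blue is B6 and orange MSM, open symbols are untreated and filled symbols injected mice, and bars are 95% Poisson counting intervals. Herpud1 reached 250 and 524 FPKM in the injected livers, Creld2 was higher in both MSM livers than in both B6 livers, and Asns was above 3 FPKM in 3 thymi and in no liver.

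Xbp1 encodes the transcription factor made by the IRE1 branch. The gene spans chr11:5520659-5525893 on the plus strand of mm10. IRE1 cuts a short piece out of its mRNA at a pair of stem loops, and the cut shifts the reading frame so that a longer, active protein is made. The piece is shown because gene-level FPKM counts both forms together and so does not separate spliced from unspliced Xbp1. Searching an annotated Xbp1 transcript (GENCODE, mm10) for the loop motif CNGCAGC gave 3 matches, of which 1 pair lay 26 bases apart. The removed piece is in exon 4, at chr11:5524279-5524304, and is in capitals in the window chr11:5524259-5524324:
Xbp1 splice window: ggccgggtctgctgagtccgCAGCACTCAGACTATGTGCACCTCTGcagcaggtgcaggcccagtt
The reading frame of the transcript was 267 codons long with the 26 bases in place and 371 codons long without them.

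Xbp1 was at 110 FPKM in the untreated B6 liver, 99.4 in the untreated MSM liver, 147 in the injected B6 liver and 59.7 in the injected MSM liver. The injected MSM liver was the lowest, with a counting interval of 51.3 to 69.1 that lay below those of the other 3 livers. In thymus it was at 42.8 (untreated B6), 44.5 (untreated MSM), 36.0 (injected B6) and 35.7 FPKM (injected MSM), and these intervals overlapped.

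Herpud1, an ER membrane protein that helps deliver misfolded proteins to the ubiquitin ligase for degradation, lies at chr8:94386438-94395377 on the plus strand. It was at 113 FPKM in the untreated B6 liver, 119 in the untreated MSM liver, 250 in the injected B6 liver and 524 in the injected MSM liver. Both injected livers lay above both untreated livers, with counting intervals that did not overlap (highest untreated bound 132, lowest injected bound 232). The thymi held 14.6 (untreated B6), 23.3 (untreated MSM), 14.7 (injected B6) and 16.3 FPKM (injected MSM). Of the 23.3 FPKM in the untreated MSM thymus, 19.8 remained after subtracting 2.96% of the matching liver's values, a share estimated from hepatocyte markers. An antisense gene, Gm15890, overlaps 478 bases of the Herpud1 locus, and whether counting used strand is not given in the sources used here.

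Sdf2l1, a partner of the ER DnaJ co-chaperones, is at chr16:17130138-17132383 on the minus strand. Its livers were at 14.8 (untreated B6), 18.5 (untreated MSM), 21.5 (injected B6) and 14.7 FPKM (injected MSM), and its thymi at 8.65, 8.21, 8.18 and 6.73 FPKM in the same order. Every liver lay above every thymus. Within a tissue the counting intervals of all 4 libraries overlapped.

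Creld2, an ER-resident disulfide isomerase-like protein induced by ER stress, is at chr15:88819646-88826683 on the plus strand. It was at 12.1 FPKM in the untreated B6 liver and 12.9 in the injected B6 liver, against 29.8 in the untreated MSM liver and 27.4 in the injected MSM liver. The 2 MSM livers lay above the 2 B6 livers, with counting intervals from 20.3 upward in MSM and up to 18.8 in B6. The thymi were at 9.74 (untreated B6), 8.84 (untreated MSM), 13.0 (injected B6) and 8.56 FPKM (injected MSM), so the MSM thymi were not above the B6 thymi.

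Atf4, the central transcription factor of the integrated stress response, is at chr15:80255184-80257541 on the plus strand. Its mRNA was at 65.6 FPKM in the untreated B6 liver, 67.9 in the untreated MSM liver, 44.5 in the injected B6 liver and 66.8 in the injected MSM liver. The injected B6 liver was the lowest of the 4. The thymi were at 26.1 (untreated B6), 39.1 (untreated MSM), 40.1 (injected B6) and 36.0 FPKM (injected MSM), all below every liver. ATF4 is controlled largely by translation, which RNA levels do not show.

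Ddit3 encodes CHOP, a transcription factor linked to cell death under lasting ER stress, at chr10:127290774-127296288 on the plus strand. Its livers were at 7.28 (untreated B6), 2.59 (untreated MSM), 2.49 (injected B6) and 11.4 FPKM (injected MSM), which correspond to about 8.19, 3.09, 3.08 and 12.3 fragments. The counting intervals of the 2 highest livers, from 3.18 and 5.95 FPKM upward, overlapped those of the 2 lowest, which reached 7.47 and 7.19. The thymi were closer together, at 10.4 (untreated B6), 7.94 (untreated MSM), 7.54 (injected B6) and 9.12 FPKM (injected MSM). The deposited tables give Ddit3 and the neighbouring Mars, a tRNA synthetase on the other strand, 1 merged locus, and the annotated genes share 68 bases. Mars was named after its values were seen. Its level, 8.36 to 15.7 FPKM in the livers, was lowest in the injected MSM liver, where Ddit3 was highest. The part of the merged locus in the Ddit3 values was not tested.

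Ppp1r15a encodes GADD34, the regulatory subunit that directs a phosphatase to eIF2alpha, at chr7:45522916-45526268 on the minus strand. It was at 1.71 FPKM in the untreated B6 liver, 4.61 in the untreated MSM liver, 2.61 in the injected B6 liver and 9.25 in the injected MSM liver. The 2 MSM livers were the 2 highest. The B6 values rest on about 5.96 (untreated) and 9.97 fragments (injected). The counting interval of the untreated MSM liver, from 2.68 FPKM upward, overlapped those of the untreated and injected B6 livers, which reached 3.74 and 4.80. In thymus it was at 2.04 (untreated B6), 2.99 (untreated MSM), 2.92 (injected B6) and 4.52 FPKM (injected MSM), the injected MSM mouse again being the highest. Tulp2 overlaps 716 bases of it on the opposite strand and was at most at 0.781 FPKM in any library.

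Trib3, a pseudokinase induced by ATF4 and CHOP that feeds back on both, is at chr2:152337422-152344032 on the minus strand. It was listed at 0 in the untreated B6 liver and at 0.601 FPKM in the injected B6 liver, against 2.50 FPKM in the MSM liver without injection and 7.91 in the injected one. The thymi were listed at 0 (untreated B6), 0.958 (untreated MSM), 0.481 (injected B6) and 2.43 FPKM (injected MSM). In each tissue the MSM mice were above the B6 mice, and the injected MSM mouse was the highest. These values rest on 7.88 and 22.6 estimated fragments in the MSM livers and at most 1.97 in the B6 livers. In the untreated B6 liver 3 fragments would have been 1.01 FPKM. The counting interval of the untreated MSM liver, from 1.07 FPKM upward, overlapped those of the untreated and injected B6 livers, which reached 1.24 and 2.19. Those of the untreated and injected MSM thymi, from 0.308 and 1.32 FPKM upward, overlapped that of the injected B6 thymus, which reached 1.42.

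Asns, asparagine synthetase, is at chr6:7675169-7693254 on the minus strand. It was listed at 0 in 3 livers and at 0.644 FPKM, about 2.08 fragments, in the injected B6 liver. The thymi were at 3.03 (untreated B6), 6.16 (untreated MSM), 0.688 (injected B6) and 3.53 FPKM (injected MSM), so the injected B6 thymus was the lowest and the untreated MSM thymus the highest.

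Chac1, which breaks down glutathione and is induced by ATF4, is at chr2:119351229-119354381 on the plus strand. It was at 2.23 FPKM in the untreated B6 liver and 3.72 in the injected MSM liver, about 5.21 and 8.35 fragments, and was listed at 0 in the other 2 livers. In a liver, 3 fragments would have been 1.17 to 1.34 FPKM. In thymus it was listed at 0 in 3 libraries and at 0.235 FPKM, about 1.04 fragments, in the injected MSM mouse.

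The 4 mice allow strain to be compared in each tissue, MSM minus B6, with the treatment as a block so that each pair is taken within 1 table. Creld2, Trib3, Ppp1r15a, Herpud1 and Atf4 were higher in both MSM livers than in their B6 counterparts, and Xbp1 was lower in both. For Herpud1, Atf4 and Xbp1 the untreated pair differed little (0.07, 0.05 and -0.15). None of the 10 genes passed the test in either tissue. Differences are of log2(FPKM + 1), which understates the change of genes of a few FPKM. Of 10971 genes tested in liver, 161 (1.47%) passed the threshold of 0.05 on the adjusted p (limma, two-sided, Benjamini-Hochberg), 56 higher (0.51%) and 105 lower (0.957%) in MSM, and none of the 9 genes tested here was among them. Asns had a mean below 1 FPKM over the livers and was not tested. At an unadjusted p under 0.05 there were 3 of the 9, beside 16.2% of all genes tested.

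Trib3 had the largest of these differences. It was higher in MSM liver by 1.81 in the untreated and 2.48 in the injected pair, and the fitted difference was 2.14 ± 0.43 (SE, limma adjusted p = 0.122, n = 4 libraries). Over the alternative settings, which include fits without 1 library and the block, the value ran from 0.895 to 4.11 and its adjusted p from 0.0708 to 0.688. Creld2 differed by 1.24 and 1.03, with a fitted 1.13 ± 0.24 (limma adjusted p = 0.132, range over alternatives 0.0915 to 0.594), which is 2.48-fold and 2.12-fold in FPKM. Ppp1r15a differed by 1.05 and 1.51, with a fitted 1.28 ± 0.34 (limma adjusted p = 0.196, range 0.186 to 0.707). For Xbp1 the pairs gave -0.15 and -1.29, and the fitted difference was -0.72 ± 0.32 (limma adjusted p = 0.371, range 0.262 to 0.763).

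The other 5 genes gave differences between MSM and B6 livers that were under 2 standard errors. Herpud1 was 0.07 higher in the untreated and 1.07 higher in the injected MSM liver, and Atf4 0.05 and 0.58 higher. Sdf2l1 (0.30 and -0.51), Ddit3 (-1.20 and 1.83) and Chac1 (-1.69 and 2.24) changed sign between the untreated and the injected pair. For Ddit3 and Chac1 it was thus over 2-fold in each pair, in opposite directions. Macrophage markers moved with strain in liver, as given above, and their part in these differences was not tested.

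**Figure D2:**
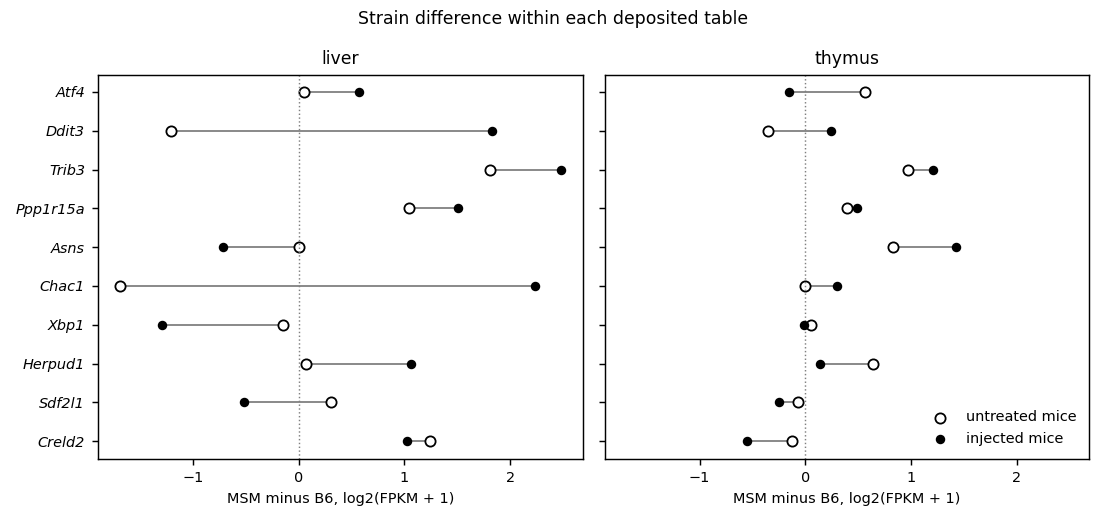
MSM minus B6 difference of log2(FPKM + 1) for each gene in liver (left) and thymus (right); open circles are the untreated pair, filled circles the injected pair, and grey lines join them. In liver Trib3, Ppp1r15a and Creld2 lay above 1 in both pairs and Ddit3 and Chac1 on opposite sides of 0, while in thymus only Asns and Trib3 reached 0.8 in both pairs.

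In thymus, 113 of 11610 genes (0.973%) passed, 44 higher and 69 lower in MSM, and none of the 8 genes tested here was among them. Trib3 and Chac1, at a mean below 1 FPKM, were not tested. Asns was higher in MSM by 0.83 in the untreated and 1.43 in the injected pair, with a fitted difference of 1.13 ± 0.35 (limma adjusted p = 0.265). It was the only 1 of the 8 with an unadjusted p under 0.05, which 13.0% of all genes had, and over the alternatives its adjusted p ran from 0.158 to 0.948. Without the untreated MSM thymus, in a fit that also had to drop the treatment block and so crossed the 2 tables, the Asns difference was 0.80 (adjusted p = 0.538). For Xbp1 the pairs gave 0.06 and -0.01 and for Sdf2l1 -0.07 and -0.25.

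Whether a strain difference differed between the tissues was tested on the liver minus thymus difference of each mouse. None of the 10 genes passed, where 47 of 12880 genes (0.365%) did and 12.6% had an unadjusted p under 0.05. Creld2 had the largest estimate above 0: liver minus thymus was 0.28 and -0.01 in the untreated and injected B6 mice and 1.65 and 1.57 in the MSM mice, a difference of 1.47 ± 0.36 (limma adjusted p = 0.219, range over alternatives 0.134 to 0.889). The Asns estimate was -1.49 ± 0.57 (adjusted p = 0.381), that of Trib3 1.05 ± 0.50 (adjusted p = 0.468) and that of Ppp1r15a 0.83 ± 0.41 (adjusted p = 0.489). Creld2 and Asns were the 2 genes with an unadjusted p under 0.05.

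Genes around these 10 in the pathways, from lists that hold no member, gave the same count of 0 past the threshold for strain in both tissues. In liver 16.2% of all genes had an unadjusted p under 0.05, counting both directions together. At that level the amino acid list had 4 of 9 higher in MSM, the ATF4-programme factors and the ER stress sensors 2 of 9 each, and ER translocation 1 of 20. Lower in MSM were 2 of 22 chaperones, 1 of 13 tRNA synthetases and 1 of 15 degradation genes, and none of the 8 kinase and phosphatase genes was in either group. The closest to the threshold in liver was Cth, cystathionine gamma-lyase of cysteine synthesis, which was at 288 and 274 FPKM in the untreated and injected B6 livers and at 702 and 598 in the MSM livers (1.20 ± 0.18, limma adjusted p = 0.0666). Ddit4, an inhibitor of mTORC1 signalling, was at 10.9 and 10.8 FPKM in the B6 thymi and at 30.1 and 69.7 in the MSM thymi (1.98 ± 0.33, adjusted p = 0.0649). Among 22 ER chaperones tested in liver, 11 lay above and 11 below 0, with a median difference of 0.0032 beside 0.0067 over all genes. In thymus 18 of 22 lay above and 4 below 0, with a median of 0.29 beside 0.03 over all genes, and none had an unadjusted p under 0.05. The MSM side of these values includes the untreated MSM thymus, whose hepatocyte markers were raised as given above. The part of that thymus in them was not tested. Ero1lb, an ER oxidase, was lower in MSM liver, at 8.44 and 13.2 FPKM against 25.0 and 23.7 (-1.13 ± 0.29, adjusted p = 0.182).

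Liver and thymus of the same mouse were compared with the mouse as a block. Herpud1, Xbp1, Sdf2l1 and Atf4 were higher in liver and Asns was lower, 5 of the 10 genes, where 7821 of 12880 genes (60.7%) passed, 3687 higher in liver (28.6%) and 4134 lower (32.1%). The count of these genes is thus close to the share of all genes, and at an unadjusted p under 0.05 there were 6 of 10 beside 66.0%. Herpud1 was higher in liver by 2.87 and 2.30 in the untreated B6 and MSM mice and by 3.99 and 4.92 in the injected B6 and MSM mice, a mean of 3.52 ± 0.44 (SE, limma adjusted p = 0.000906). Xbp1 differed by 1.30 ± 0.24 (adjusted p = 0.00434), Sdf2l1 by 1.03 ± 0.18 (adjusted p = 0.00348) and Atf4 by 0.77 ± 0.22 (adjusted p = 0.0238), each higher in 4 of 4 livers. Asns was lower in 4 of 4 livers, by 2.01 and 2.84 in the untreated B6 and MSM mice and by 0.04 and 2.18 in the injected ones, and its fitted difference was -1.77 ± 0.47 (adjusted p = 0.0189).

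The other 5 genes did not pass. Creld2 gave 0.87 ± 0.34 (adjusted p = 0.064), Chac1 0.91 ± 0.44 (adjusted p = 0.115), Trib3 0.58 ± 0.31 (adjusted p = 0.148), Ppp1r15a 0.27 ± 0.26 (adjusted p = 0.379) and Ddit3 -0.69 ± 0.32 (adjusted p = 0.102). Ddit3 was lower in the liver than in the thymus of 3 mice and higher in that of the injected MSM mouse, and without that mouse its difference was -1.02 (adjusted p = 0.0303). Creld2 passed without the injected B6 mouse (1.17, adjusted p = 0.0408). The calls of Atf4 and Asns depended on single mice. Atf4 lost its call without the untreated B6 mouse (0.60, adjusted p = 0.0897) and without the injected MSM mouse (0.74, adjusted p = 0.0772), and Asns lost it without the untreated B6 (adjusted p = 0.0647), untreated MSM (0.0549) or injected MSM mouse (0.0718).

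The tissue differences depended on scaling. Rescaling each library to the same total (TPM) moved the median of all genes from -0.13 to -1.05. This rescaling left far more genes lower than higher in liver, by the counts given below for all genes. Under it Herpud1 was higher (2.50, adjusted p = 0.00287), Ddit3 (-1.76, adjusted p = 0.00416) and Asns (-2.97, adjusted p = 0.00605) were lower, and Xbp1 (0.25), Sdf2l1 (0.04) and Atf4 (-0.28) did not pass, while Creld2 (-0.13) and Ppp1r15a (-0.64) turned below 0. Relative to the median of all genes the members moved less: Herpud1 lay 3.65 above it as deposited and 3.55 after rescaling, Xbp1 1.43 and 1.29, Sdf2l1 1.16 and 1.09, Creld2 1.00 and 0.91 and Atf4 0.90 and 0.77. Asns lay at -1.64 from that median as deposited and at -1.92 after rescaling.

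The ER chaperones were higher in liver. Of 22 ER chaperones and folding enzymes tested, 19 were higher and 0 lower, beside 28.6% and 32.1% of all genes. Their median difference was 1.82 beside -0.13 over all genes. P4hb, the protein disulfide isomerase, was at 497 to 576 FPKM in the livers and 43.3 to 74.7 in the thymi (3.32 ± 0.19, limma adjusted p = 8.2e-05), and Hsp90b1, the ER HSP90, at 390 to 527 and 89.3 to 108 (2.23 ± 0.18, adjusted p = 0.000188). After rescaling to TPM 12 of 23 were higher and 2 lower, where the median of all genes was -1.05. Lower genes far outnumbered higher ones among all genes under that scaling, by the counts given below. As deposited, leaving out any 1 mouse left 18 to 20 higher.

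Of 15 genes of ER-associated degradation, the pathway in which Herpud1 acts, 12 were higher in liver and 1, Edem1, was lower (named after its values were seen). Over all genes 28.6% were higher and 32.1% lower. Sel1l, the adaptor of the HRD1 ligase, was at 23.4 to 36.9 FPKM in the livers and 8.68 to 9.74 in the thymi, a difference of 1.58 ± 0.17 (adjusted p = 0.000502). Of 21 genes of ER translocation and early transport, 15 were higher and 2 lower, among them the cargo receptor Lman1 (3.34 ± 0.20, adjusted p = 8.8e-05). After rescaling to TPM the counts were 3 higher and 2 lower for degradation and 6 higher and 6 lower for translocation. Among all genes lower ones far outnumbered higher ones under that scaling, with a median of -1.05. The counts within these lists thus depended on the scaling, as did those of all genes.

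Sensors of ER stress were higher in liver for 5 of 9 tested and lower for none, beside 28.6% and 32.1% of all genes. Ern1, the IRE1 kinase that splices Xbp1, was at 10.6 to 22.8 FPKM in the livers and 1.92 to 3.30 in the thymi (2.23 ± 0.18, adjusted p = 0.000198), Atf6 gave 2.23 ± 0.20 (adjusted p = 0.000253), and Creb3l3, an ER-bound factor of hepatocytes, 6.25 ± 0.22 (adjusted p = 6.6e-05). Of 8 genes for eIF2alpha kinases, phosphatase and their regulators 2 were higher and 2 lower, near the 28.6% and 32.1% of all genes. Eif2ak3, which encodes PERK, was lower in liver (-0.88 ± 0.30, adjusted p = 0.0453). After rescaling to TPM the sensors were 3 higher and 3 lower, and the kinase list 0 higher and 5 lower. Lower genes far outnumbered higher ones among all genes too under that scaling.

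Of 17 genes of amino acid transport and synthesis, 5 were higher in liver and 8 lower, with a median of -0.72, beside 28.6% and 32.1% of all genes. After rescaling to TPM 5 were higher and 12 lower, and lower genes far outnumbered higher ones among all genes as well. Phgdh, the first enzyme of serine synthesis, was listed at 0 in all 4 livers and was at 27.8 to 36.8 FPKM in the thymi (-5.11 ± 0.19, adjusted p = 6.6e-05), on the same side as Asns. Cth (6.50 ± 0.21, adjusted p = 6.6e-05) and Cbs (6.51 ± 0.42, adjusted p = 9.9e-05) of cysteine synthesis and Gpt2, an alanine aminotransferase (5.37 ± 0.50, adjusted p = 0.000303), were higher in liver. Among 13 tRNA synthetases and their partners 5 were higher and 0 lower, beside 28.6% and 32.1% of all genes, led by Aars (2.25 ± 0.19, adjusted p = 0.000229). After rescaling to TPM 1 was higher and 7 lower, in the direction of most calls over all genes. Of 12 transcription factors and effectors of the programme 3 were higher, including Atf5 (3.42 ± 0.21, adjusted p = 9.4e-05), and 2 lower, including Ddit4 (-1.83 ± 0.21, adjusted p = 0.000628). Neither count exceeded the share of all genes given above. After rescaling to TPM 2 factors were higher and 3 lower.

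**Figure D3:**
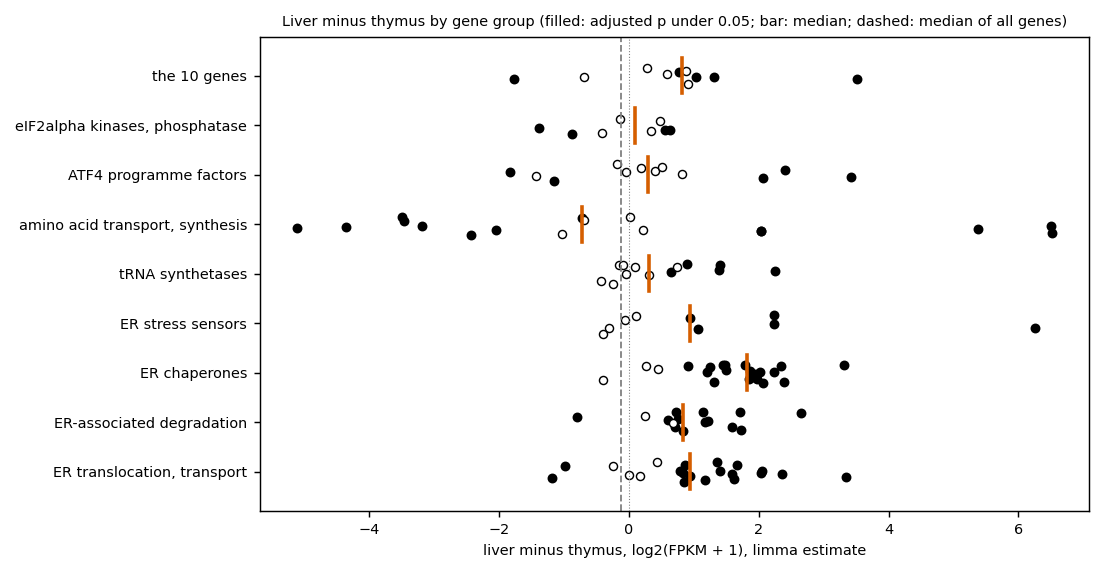
Liver minus thymus difference of log2(FPKM + 1) for the 10 genes and the 8 pathway lists; each point is a gene, filled where the limma adjusted p was under 0.05, the orange bar is the median of the list and the dashed line the median of all genes (-0.13). The chaperone list had 19 of 22 points filled above 0, while the amino acid list was spread from -5.11 to 6.51.

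Injection was compared without a test, because each strain, tissue and treatment is 1 library and the treatment coincides with the deposited table, so treatment and table cannot be told apart. Values are injected minus untreated differences of log2(FPKM + 1) after centring the 4 libraries of a tissue by the median ratio. In liver Herpud1 was the only 1 of the 9 genes kept that was at least 2-fold higher in the injected mouse of both strains, with 1.08 in B6 and 2.10 in MSM, or 2.22-fold and 4.41-fold in FPKM. Over all 10971 genes kept in liver, 1.64% were at least 2-fold higher in both strains and 1.24% at least 2-fold lower. None of the 10 genes was at least 2-fold lower in both.

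Ddit3 and Chac1 went in opposite directions in the strains. Ddit3 was at -1.29 in B6, from 7.28 to 2.49 FPKM, and at 1.76 in MSM, from 2.59 to 11.4 FPKM. Chac1 was at -1.69 in B6, where it went from 2.23 FPKM to a listed 0, and at 2.21 in MSM, where it went from a listed 0 to 3.72 FPKM. Such opposite 2-fold differences were found in 1.07% of all genes kept. All of these values rest on 12.3 estimated fragments or fewer.

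The injected MSM liver was the highest liver for Trib3 and Ppp1r15a as well. Trib3 gave 0.66 in B6 and 1.32 in MSM (3.17-fold in FPKM in MSM), and with a pseudocount of 0.1 in place of 1 its B6 value became 2.76. The B6 value of Trib3 compares a listed 0 with about 1.97 fragments. Ppp1r15a gave 0.37 in B6 and 0.84 in MSM, or 1.52-fold and 2.01-fold in FPKM. Xbp1 gave 0.35 in B6 and -0.76 in MSM, Sdf2l1 0.45 and -0.34, Atf4 -0.61 and -0.05 and Creld2 0.03 and -0.15. In MSM 4 of the 9 genes (Herpud1, Ddit3, Chac1 and Trib3) were thus at least 2-fold higher in the injected liver, beside 6.75% of all genes kept, and with a pseudocount of 5 Trib3 (0.76) and Chac1 (0.79) fell short of 2-fold. In B6 it was 1 of 9, beside 6.49%. At least 2-fold lower were 2 of 9 in B6 (Ddit3 and Chac1), beside 6.19%, and 0 in MSM, beside 7.03%.

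**Figure D4:**
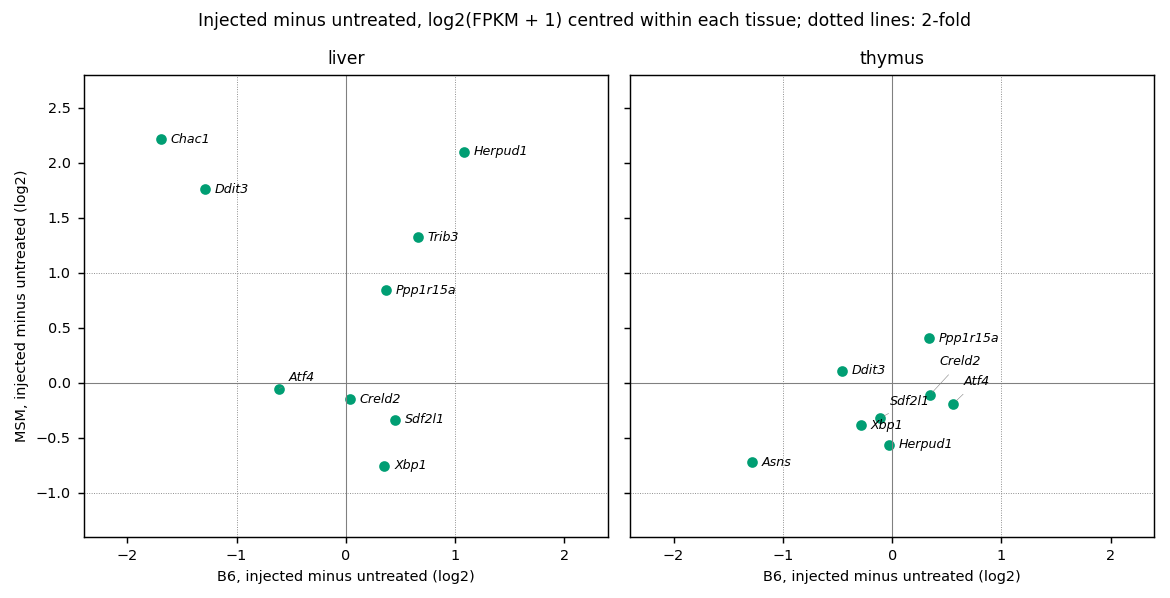
Injected minus untreated difference of log2(FPKM + 1), centred within tissue, in B6 (horizontal axis) and MSM (vertical axis) for the genes averaging 1 FPKM or more, in liver (left, without Asns) and thymus (right, without Trib3 and Chac1); dotted lines mark 2-fold. Herpud1 alone lay past 2-fold in both strains in liver, Ddit3 and Chac1 lay in the upper left, and in thymus Asns (-1.28 in B6) was the only gene past 2-fold in either strain.

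In thymus none of the 8 genes kept was at least 2-fold higher or lower in both strains, beside 0.276% and 0.422% of 11610 genes. In single strains Asns was the 1 gene at least 2-fold lower in B6, beside 1.75% of all genes, and none was 2-fold higher in B6 (2.1% of all genes), higher in MSM (1.99%) or lower in MSM (9.23%). Asns gave -1.28 in B6, from 3.03 to 0.688 FPKM, and -0.72 in MSM, from 6.16 to 3.53. For Herpud1 the thymus values were -0.03 in B6 and -0.56 in MSM. The MSM value uses the untreated MSM thymus, whose hepatocyte, airway, and adipose and muscle markers were raised as given above, and their part in it was not tested. Ppp1r15a gave 0.34 and 0.40, Xbp1 -0.29 and -0.39, Atf4 0.56 and -0.19, Creld2 0.35 and -0.11, Sdf2l1 -0.11 and -0.32 and Ddit3 -0.46 and 0.11.

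The liver minus thymus difference of a mouse lies within 1 table and so can be compared between injected and untreated mice. For Herpud1 it was larger in the injected mice by 1.87 ± 0.48 (SE, 4 mice), larger in each strain, with an unadjusted p of 0.00935 and a limma adjusted p of 0.545. Over the alternatives, in which fits without 1 mouse also dropped the strain term, the value ran from 1.41 to 2.34 and the adjusted p from 0.444 to 0.997. In the same fit all 12 hepatocyte markers lay above 0 (median 1.90) and all 12 thymocyte markers below 0 (median -0.98), and the part of these markers and of the untreated MSM thymus in the Herpud1 value was not tested. With the estimated liver share subtracted from that thymus the Herpud1 value was 1.76 (adjusted p = 0.560). None of the 10 genes passed, and Herpud1 was the only one with an unadjusted p under 0.05, beside 5 of 12880 genes (0.0388%) past the threshold, 2 larger (0.0155%) and 3 smaller (0.0233%) in injected mice, and 7.56% with an unadjusted p under 0.05. Asns gave 1.32 ± 0.57 (adjusted p = 0.672), and the estimates of the other 8 genes were under 2 standard errors.

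The chaperones of the ER showed no 2-fold difference in the injected livers. None of the 22 ER chaperones kept was 2-fold higher or lower in the injected mouse of either strain, and their medians were 0.04 in B6 and -0.31 in MSM. Over all genes kept, 6.49% were 2-fold higher and 6.19% lower in B6, and 6.75% and 7.03% in MSM. Hspa5, the chaperone BiP that holds the stress sensors inactive, was at 366 and 500 FPKM in the untreated B6 and MSM livers and at 308 and 319 in the injected ones (-0.31 and -0.68). Manf, a secreted ER stress protein, gave -0.57 and -0.94, and the co-chaperone Dnajb9 -0.51 and -0.36. Ero1l, an ER oxidase chosen in the same way, went in the other direction, with 0.15 in B6 and 0.28 in MSM. Of 15 degradation genes none was 2-fold higher in both strains, beside 1.64% of all genes, and 1 was 2-fold higher in MSM. Herpud2, the paralogue of Herpud1, gave 0.16 and 0.29.

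Amino acid genes held 2 of 9 that were at least 2-fold higher in both injected livers, beside 1.64% of all genes. Slc38a2, a transporter of neutral amino acids, was at 33.4 and 26.2 FPKM in the untreated B6 and MSM livers and at 101 and 158 in the injected ones (1.50 and 2.51). Gpt2 was at 78.2 and 114 FPKM untreated and 186 and 271 injected (1.18 and 1.21). Of 13 tRNA synthetases 1 was at least 2-fold lower in both, beside 1.24% of all genes: Tars was at 93.5 and 80.7 FPKM in the untreated livers and at 36.5 and 14.1 in the injected ones, and the list's medians were -0.23 in B6 and -0.64 in MSM. Cebpb, a transcription factor that pairs with ATF4, gave 0.65 in B6 and 1.96 in MSM liver. In the fit of the liver minus thymus difference, none of the genes of the 8 lists passed. An unadjusted p under 0.05 was found in 7.56% of all genes, counting both directions together. At that level 2 of 12 ATF4-programme factors and 2 of 17 amino acid genes were larger in the injected mice. Smaller were 2 of 8 kinase and phosphatase genes, 2 of 13 tRNA synthetases, 1 of 22 chaperones and 1 of 21 translocation genes. Of the genes above 5 FPKM the nearest to the threshold were Cebpb (2.67 ± 0.48, limma adjusted p = 0.466) and Slc38a2 (1.70 ± 0.38, adjusted p = 0.537).

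Clock genes also differed between the untreated and the injected livers in both strains. Dbp was at 1.65 and 1.96 FPKM in the untreated B6 and MSM livers and at 33.9 and 31.0 in the injected ones, and Arntl at 9.22 and 17.5 and at 1.15 and 0.527 (both named after their values were seen). The part of that difference in the values of Herpud1, Slc38a2, Gpt2 and Tars was not tested.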

How the data were processed

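The authors deposited 2 tables of gene-level FPKM, 1 for the untreated and 1 for the injected mice, from polyA RNA prepared with a TruSeq kit, per the labels' protocols. The submitters' processing notes name TopHat, Cuffdiff 2.2.1 and mm10. Reads of both strains were given 1 build, and any effect on MSM values was not tested. Samples were matched to columns by the series' design text, and liver and thymus were paired by mouse from the same text. Differences of log2(FPKM + 1) were fitted in R 4.3.3 with limma 3.58.1 (mean trend, two-sided, Benjamini-Hochberg over all genes kept, threshold 0.05) for genes averaging 1 FPKM or more. Strain was fitted in each tissue with a treatment block (1 residual degree of freedom), liver minus thymus over 8 libraries with a mouse block, and the liver minus thymus difference of each mouse on strain and treatment. Each group is 1 library, so p-values rest on the spread left after these terms across strains, treatments and mice. The scripts were tested on simulated data with independent residuals of a preset spread. How the p-values behave at the spread of the real data was not tested.

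Estimated fragments came from FPKM, transcript length less 200 bases and a depth fitted to the low values of 4097 single-transcript genes, of which 69.9% to 72.9% of the values used fell within 0.1 of a whole fragment, against 20% by chance. Since so many did not, no count test was run. Positions and the Xbp1 sequence come from GENCODE annotation of mm10, and list genes matched for 204 of 206 symbols. A fitted value is printed where it was at least 2 standard errors from 0, and for all genes in liver minus thymus. All 10 genes are named. From each pathway list at most 4 genes per comparison of at least 5 FPKM mean were eligible, by the size of their difference. The genes and lists were chosen with earlier results of these data known. Alternatives were the pseudocount, the filter, TPM and median-ratio scaling, limma without trend or with robust moderation, no block, liver RNA subtracted from the untreated MSM thymus, and each library or mouse left out. A strain fit without 1 library also drops the treatment block, and a fit of the liver minus thymus difference without 1 mouse also drops the other term. Leaving out mice in the fits of the liver minus thymus difference was added after seeing the data.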

Additional observations from a re-analysis of the deposited data

Results flagged for a closer look

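Ddit3 was at -1.29 in B6 and at 1.76 in MSM for injected minus untreated liver, on the centred log2(FPKM + 1) scale, and Chac1 at -1.69 in B6 and 2.21 in MSM. These were picked out because the injected liver differed at least 2-fold from the untreated one in opposite directions in B6 and MSM. With 1 library per group the difference between the strains was not tested. With a pseudocount of 5 the B6 values came to -0.74 for Ddit3 and -0.53 for Chac1, and the MSM value of Chac1 to 0.79, all short of 2-fold.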

How the results depend on the processing

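No member passed in the strain or ratio fits under any alternative. Without the replicate block by mouse, 7861 genes in place of 7821 and 6 members in place of 5 passed for liver minus thymus, with Creld2 added (adjusted p = 0.0376). Rescaling to TPM left 3 members and gave 2084 genes higher and 7788 lower in liver in place of 3687 and 4134. It turned Atf4 to -0.28, Ppp1r15a to -0.64 and Creld2 to -0.13. Leaving out each mouse gave 3 to 6 members. A pseudocount of 0.1 gave 2 genes, Trib3 and Herpud1, at least 2-fold higher in both injected livers. For Trib3 in B6 that compares a listed 0 with about 1.97 fragments.

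Strain calls in liver (161) became 336 after TPM rescaling, 37 without trend and 0 in each fit without 1 library and without the treatment block, which 3 libraries cannot carry, where 821 to 1229 genes had an unadjusted p under 0.05. Strain calls in thymus (113) became 300 with a pseudocount of 0.1, 62 without a filter, 184 with a filter of 5 FPKM, 45 after TPM rescaling, 61 after median-ratio centring, 44 without trend, 274 with robust moderation, 258 with liver RNA subtracted, and 10 to 301 without 1 library and the block. Without the block alone the counts were 143 in liver and 78 in thymus. The 5 calls for injected minus untreated in the liver minus thymus difference became 1 with a pseudocount of 0.1, 3 without a filter, 3 with a filter of 5 FPKM, 1 after TPM rescaling and 0 to 1 without 1 mouse and the strain term. The 47 strain calls in it became 5 and 132 with pseudocounts of 0.1 and 5, 15 without a filter, 15 with a filter of 5 FPKM, 8 after TPM rescaling, 29 after median-ratio centring, 26 without trend, 30 with robust moderation and 0 to 51 without 1 mouse and the treatment term. Why these counts moved was not tested. Depth limits Trib3, Asns, Chac1 and Ddit3 in liver, and Ppp1r15a in the B6 livers, each with few fragments.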

Other observations

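Likeness of pattern was measured over the 8 libraries as the Pearson correlation of log2(FPKM + 1) centred within tissue, among 7949 genes averaging 5 FPKM or more. It is given as a description, since the libraries share mice and tables. Herpud1 was most like Tnfrsf1b, a TNF receptor (r = 0.989), and Kcnk5, a potassium channel (r = 0.988). Ddit3 was most like Hat1 (r = 0.983), Xbp1 like Ddhd2 (r = 0.985), Creld2 like Dock8 (r = 0.979), Sdf2l1 like Flot1 (r = 0.974) and Atf4 like Hras1 (r = 0.973). Of the 10 genes only these named ones averaged 5 FPKM or more. Among their pairs r ran from -0.782 (Ddit3 and Sdf2l1) to 0.697 (Xbp1 and Sdf2l1). Xbp1 gave -0.712 with Ddit3, -0.674 with Creld2, -0.567 with Atf4 and -0.474 with Herpud1. Atf4 and Herpud1 gave r = -0.0353.

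Chac2, the paralogue of Chac1, was at 31.6 to 38.5 FPKM in the livers and 2.83 to 4.72 in the thymi (named after its values were seen). Ddit4, chosen in the same way, was at 3.28 and 5.06 FPKM in the untreated B6 and MSM livers and at 2.25 and 21.9 in the injected ones.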
